A study of Mus musculus with 24 samples.

Results

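Of 24 expression arrays of mouse primary muscle cells, 12 were of cells kept in standard medium, and they set 6 cultures from offspring of undernourished dams against 6 cultures from offspring of control dams. They were chosen by the medium and the maternal diet that the labels give. All mice were of the ICR strain, an outbred stock, and the cells were isolated from the quadriceps, expanded on Matrigel and then differentiated in low-glucose medium with 5.5 mM glucose and 2% serum. Dams of the undernourished offspring were given 50% of the food eaten by matched controls from day 12.5 of pregnancy until birth, control dams were not restricted, all mothers had free access to chow afterwards, and litters of both groups were adjusted to 8 pups. The arrays not compared here held sister samples in a medium with 0.5 mM glucose and 1% serum, 6 per maternal diet. Each culture carries a number in the labels, namely 1, 4, 8, 9, 12 and 20 for the undernourished and 5, 10, 11, 15, 16 and 24 for the control offspring. What such a number denotes (a mouse, its litter, a dish of cells) is not in the labels, and neither are the age and sex of the offspring. The p-values below therefore measure only the spread between these samples, which may be partly technical. The sample titles hold a second number of unstated meaning. In standard medium it was 6, 12, 14, 18, 22 and 24 for undernourished, and 2, 4, 8, 10, 16 and 20 for control cultures. It tended to be higher for undernourished cultures, so a fit with it as a covariate cannot fully separate it from maternal diet.

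Skeletal muscle fibres are laid down before and shortly after birth by satellite cells and their precursors, which leave the cell cycle, fuse into multinucleated myotubes and switch on the contractile and metabolic genes of muscle. Food restriction in late pregnancy lowers birth weight in rodents and is used as a model of the later metabolic disease that accompanies low birth weight, in which muscle is a main site of altered glucose and lipid use. Cells taken from the offspring and grown away from the animal allow a test of whether differences persist in culture. The standard medium gives that comparison at the higher glucose and serum levels of the series.

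No gene differed between undernourished and control cultures past the threshold. In a limma fit of 22180 genes on log2 signal, 0 (0%) had a Benjamini-Hochberg adjusted p under 0.05, 0 were under 0.1, and the lowest adjusted p was 0.9998. At an unadjusted p under 0.05 there were 578 genes (2.61%), of which 304 (1.37%) were higher and 274 (1.24%) lower in undernourished cultures. The signals of the 6 undernourished and 6 control arrays did not overlap for 34 genes, with 14 (0.0631%) higher and 20 (0.0902%) lower. Differences, always given as undernourished minus control on the log2 scale, had a median of 0.0091 over all genes, with the 5th percentile at -0.18 and the 95th at 0.20. Differences of at least 0.5 in size were found for 64 genes (0.289%), 30 of them higher and 34 lower. A positive difference of any size was found for 53.2% of genes, and for 63.9% when each array was first centred on its median.

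The arrays set a limit on what could have been missed. The 95% confidence interval of the difference lay within 1 log2 unit of 0 for 21903 genes (98.8%) and within 0.5 log2 units for 19378 genes (87.4%). Its median half-width was 0.24 log2 units, and the median gene had an SD of 0.19 over the 6 undernourished and 0.18 over the 6 control cultures. Among genes at or above the median signal, 83.5% had an interval within 0.5 log2 units, with a median half-width of 0.25. Pairs of arrays correlated between 0.955 and 0.990 over all 41345 transcript clusters of the arrays. The median was 0.978 within a maternal diet and 0.979 between the diets. On the first principal component, which held 24.9% of the variance, the arrays farthest from 0 came from both groups, with scores of 34.0 for undernourished culture 20 and 21.2 for culture 9, against 23.6 for control culture 24 and -25.0 for control culture 15.

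**Figure D1:**
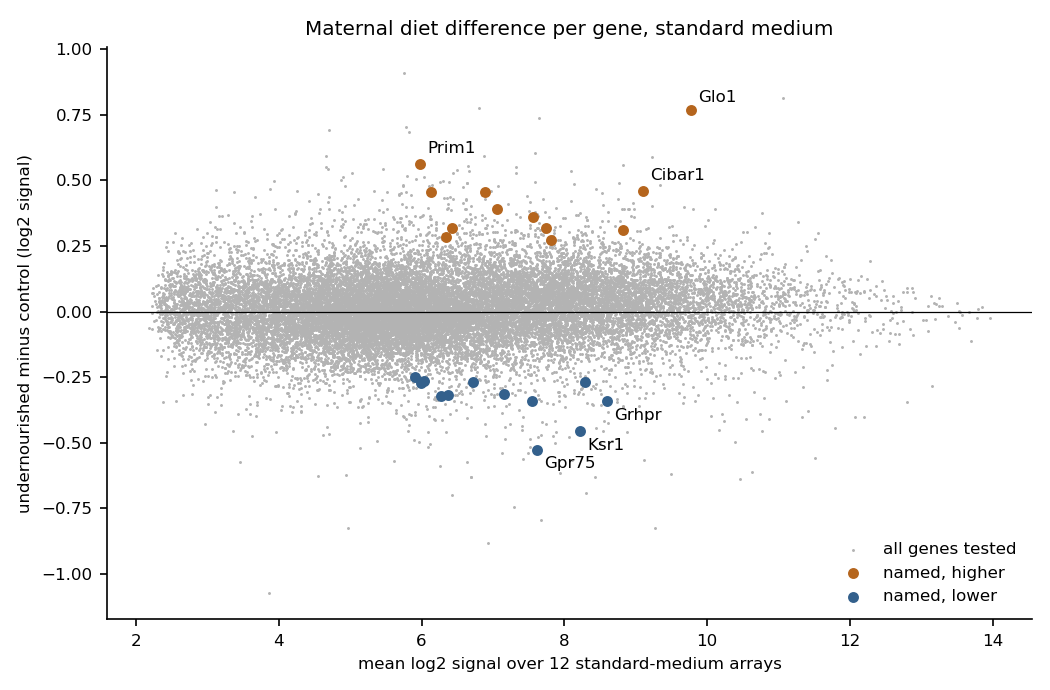
Difference between undernourished and control cultures (log2 signal, y axis) against the mean log2 signal over the 12 standard-medium arrays (x axis), 1 point per gene. Grey points are all 22180 genes, and coloured points are the 24 named genes, 12 per direction, none of which passed the adjusted threshold.

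Regulators of muscle differentiation were checked first, and the lists of myotube and contractile genes, most of whose members had negative differences, are given further on. Myog, the regulator that commits myoblasts to fusion, had log2 signals from 11.87 to 12.49 in undernourished cultures (median 12.35), against 12.13 to 12.64 in control cultures (median 12.33). Myod1, which specifies the muscle lineage, lay between 11.01 and 11.89 (median 11.35) in undernourished and between 10.89 and 11.67 (median 11.34) in control cultures. Mymk, the membrane protein that drives fusion of myoblasts, ranged from 12.98 to 13.54 in undernourished and from 13.16 to 13.40 in control cultures. These ranges overlapped for each of the 3 genes.

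Defining markers of other cell types were checked on the same arrays. Ptprc, carried by all leukocytes, had a log2 signal of 3.32 to 3.64 in undernourished and 3.31 to 3.78 in control cultures, and the fat cell hormone gene Adipoq had 3.65 to 3.94 against 3.72 to 4.22. The endothelial gene Pecam1 lay between 5.16 and 5.41 in undernourished and between 5.20 and 5.47 in control cultures. Sox10, which marks Schwann cells, was 7.43 at its highest, in an undernourished culture with a group median of 5.74, while control cultures reached 5.97 with the same median of 5.74. Xist, transcribed from an inactive X chromosome, was between 10.49 and 11.29 in undernourished and between 10.56 and 11.48 in control cultures, and the Y-linked gene Eif2s3y between 3.07 and 3.63 and between 3.12 and 3.58. RMA signals have no true zero, so a low signal sets no absence. The markers in this and the preceding paragraph were picked from their lists after the values were known. Most members of the leukocyte, adipocyte and endothelial lists had positive differences, namely 8 of 13, 6 of 9 and 6 of 10. The lowest p on each side of the leukocyte list belonged to Cd3e and Ptprc, with differences of 0.25 and -0.05.

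The genes nearest to the threshold are named next, by p among genes of at least median signal, which was 6.03 in the group where they were higher. Model, small RNA and receptor-family symbols were passed over, 0 on the higher and 4 on the lower side. Differences among the 12 on the higher side ran from 0.27 for Ankmy2 to 0.77 for Glo1. Those on the lower side ran from -0.25 for Npas2 to -0.53 for Gpr75. Each had an adjusted p of 0.9998, and their direction and unadjusted p values chose them, so both are given as a description.

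Glo1, glyoxalase 1, which detoxifies the glycolytic by-product methylglyoxal, had the largest difference of the 12. Its log2 signal was 10.91 in undernourished culture 9, 10.77 in culture 8, 10.40 in culture 20, 9.74 in culture 1, 9.58 in culture 4 and 9.51 in culture 12. Control cultures had 9.55 in culture 24, 9.51 in culture 10, 9.49 in culture 16, 9.47 in culture 5, 9.37 in culture 11 and 8.91 in culture 15. Thus 3 undernourished cultures stood well above the control range and the other 3 at its upper edge. The means were 10.15 ± 0.62 in undernourished and 9.38 ± 0.24 in control cultures (SD, n = 6 each), a difference of 0.77 ± 0.23 (SE), or 1.70-fold, with an unadjusted p of 0.0052 in limma and 0.0043 in a two-sided exact permutation test. Over 23 alternatives, each culture left out in turn among them, the difference lay between 0.53 and 0.89.

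The signal of Glo1 followed the culture number into the other medium. In limited medium it was 10.70, 10.81 and 10.42 in undernourished cultures 9, 8 and 20, and 9.89, 9.72 and 9.71 in undernourished cultures 1, 4 and 12. Control cultures in limited medium lay between 8.90, in culture 15, and 10.02, in culture 11. On chromosome 17 the gene lies between Btbd9 and Dnah8, which were looked up after its values had been seen. Btbd9 had log2 signals of 7.97 to 8.86 in undernourished cultures (median 8.46) and of 8.14 to 8.48 in control cultures (median 8.24), a difference of 0.18 ± 0.14. Its highest values were 8.86, 8.67 and 8.60 in undernourished cultures 9, 12 and 8. Dnah8, a dynein heavy chain of motile cilia, differed by 0.12 ± 0.08, with 4.62 to 4.98 in undernourished and 4.46 to 4.71 in control cultures.

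Prim1, the catalytic subunit of the primase that starts DNA strands, had log2 signals of 5.86 to 6.87 in undernourished cultures (median 6.22) and 5.00 to 6.02 in control cultures (median 5.78). The ranges overlapped, since undernourished culture 12 lay below control cultures 16 and 24, and the difference was 0.56 ± 0.18. Rbl1, which encodes the p107 pocket protein that represses E2F target genes, ranged from 6.32 to 6.87 in undernourished (median 6.58) and from 6.10 to 6.52 in control cultures (median 6.25), a difference of 0.32 ± 0.10. Nxt2, a cofactor of messenger RNA export from the nucleus, was the only gene of these 12 whose groups did not overlap, with 6.31 to 6.67 in undernourished (median 6.50) and 5.97 to 6.29 in control cultures (median 6.24). Its difference was 0.29 ± 0.09, and its exact permutation p of 0.0022, unadjusted, is the smallest that 6 against 6 samples can give.

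Cibar1, a ciliary protein with a membrane-bending domain, had the smallest unadjusted p of this side, 0.0021. It lay between 8.95 and 9.65 in undernourished (median 9.31) and between 8.55 and 9.14 in control cultures (median 8.84), a difference of 0.46 ± 0.12. With the second title number as a covariate that difference was 0.30. Dubr, a long noncoding RNA, differed by 0.46 ± 0.14, with 6.80 to 7.46 in undernourished and 6.29 to 6.94 in control cultures. A pair of enzymes of lipid and cofactor metabolism, Pank3 and Nceh1, were on this list as well. Pank3, a pantothenate kinase of coenzyme A synthesis, had 8.59 to 9.22 in undernourished (median 9.01) and 8.50 to 8.86 in control cultures (median 8.69), a difference of 0.31 ± 0.10. Nceh1, which hydrolyses cholesterol esters, had 7.43 to 7.99 (median 7.77) against 7.06 to 7.70 (median 7.39), a difference of 0.36 ± 0.12. As a mean over the clusters assigned to Nceh1 it was 0.23. The remaining members were Lancl2, Ankmy2, Dipk1a and Fam241a, with differences between 0.27 and 0.45 and overlapping groups.

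On the lower side, Speg had the smallest unadjusted p, 0.0031. This kinase of striated muscle sits at the junctions where calcium is released, and its log2 signal was 7.27 to 7.53 in undernourished cultures (median 7.34) against 7.42 to 7.96 in control cultures (median 7.69). Control culture 24 alone lay within the undernourished range, and the difference was -0.34 ± 0.10. Gpr75, a G protein-coupled receptor, was the only 1 of these 12 with no overlap, at 7.22 to just under 7.49 in undernourished (median 7.33) and just over 7.49 to 8.80 in control cultures (median 7.70). Its difference was -0.53 ± 0.18, and -0.34 without control culture 15, which held the highest value.

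Grhpr, an enzyme that reduces glyoxylate and hydroxypyruvate, lay between 8.28 and 8.72 in undernourished (median 8.40) and between 8.50 and 9.05 in control cultures (median 8.73). Its difference was -0.34 ± 0.12. Ksr1, a scaffold of the Ras to ERK kinase cascade, lay between 7.51 and 8.24 (median 8.02) in undernourished and between 7.94 and 8.88 (median 8.55) in control cultures, a difference of -0.46 ± 0.16. Npas2, a transcription factor of the circadian clock, differed by -0.25 ± 0.08, with 5.64 to 5.91 in undernourished and 5.89 to 6.22 in control cultures. Fgd3, of a family of Cdc42 activators, differed by -0.32 ± 0.10, and Arhgap23 by -0.27 ± 0.09. The other members were Fam222a, Ankrd33b, Nek8, Gp9 and Elfn1, with differences between -0.32 and -0.26. Without undernourished cultures 4 and 20 the difference of Gp9 was -0.18.

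**Figure D2:**
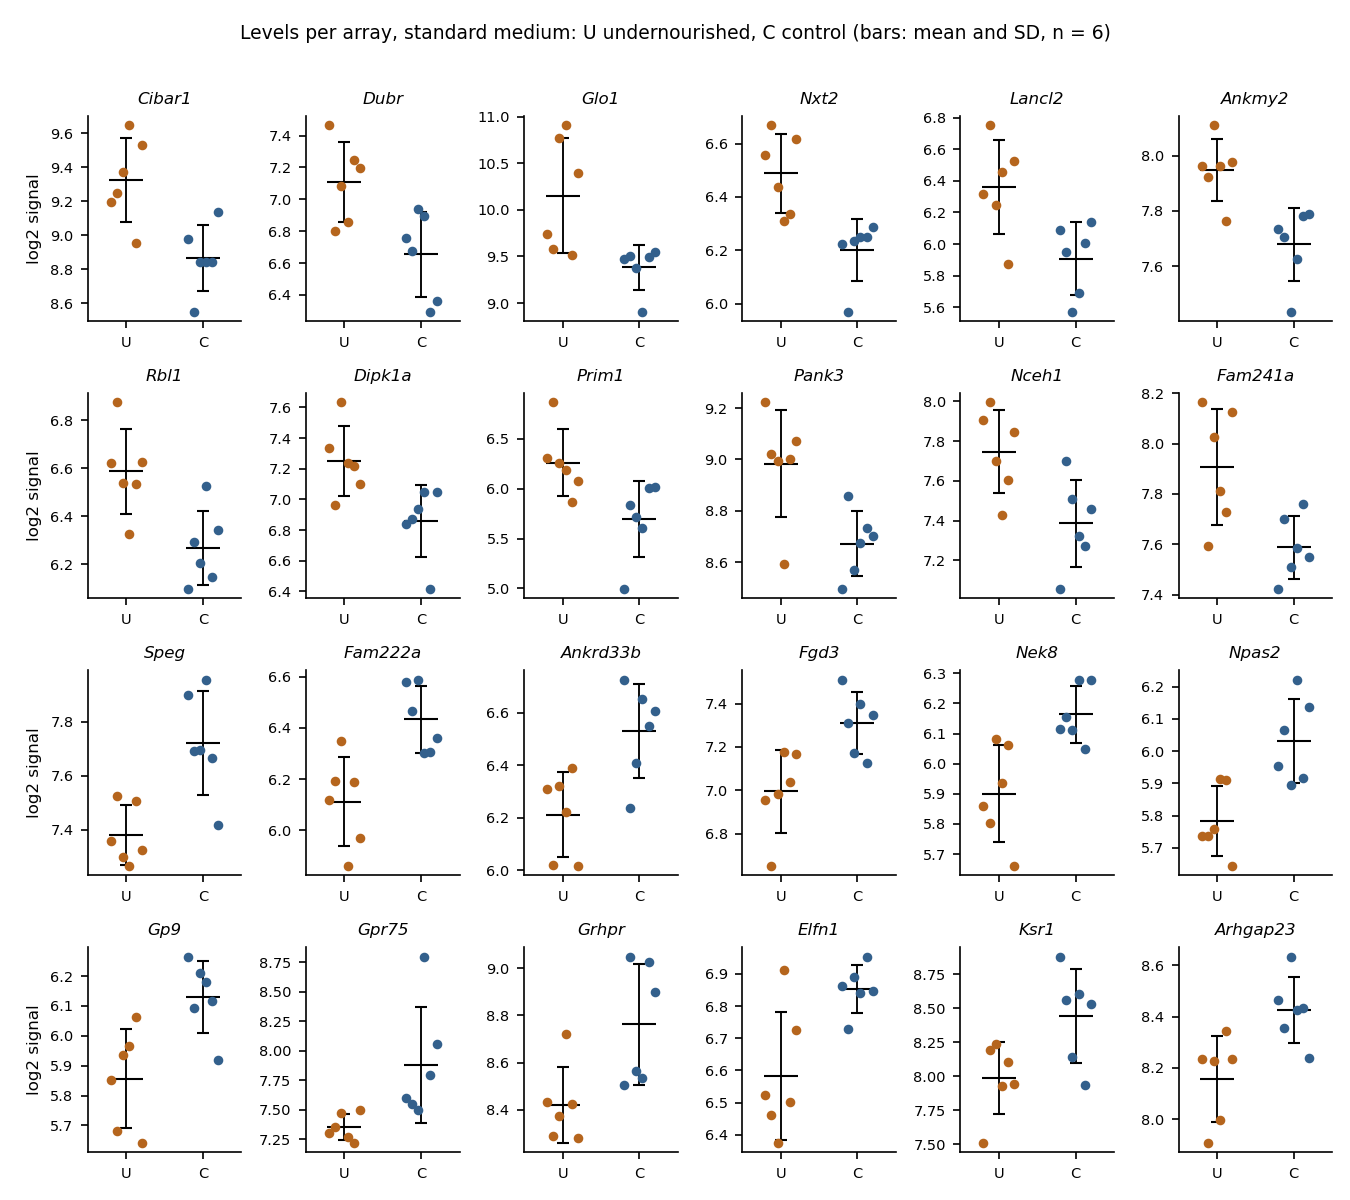
Log2 signal of the 24 named genes on each standard-medium array, with undernourished cultures (U, orange) left of control cultures (C, blue), a point per array and bars for the mean and SD of 6. Only Nxt2 and Gpr75 show no overlap between the groups, and Glo1 shows 3 undernourished cultures above 10 with the other 3 near the controls.

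The largest differences, whatever their p, belonged to genes that varied strongly from culture to culture. They were picked after their values were known, among genes whose mean signal reached the median, with model, small RNA and receptor-family symbols passed over. Kcnma1, a calcium-activated potassium channel, had the largest positive one at 0.81 ± 1.87. Its log2 signal was between 13.79 and 13.89 in undernourished cultures 8, 9, 12 and 20, but 7.81 in culture 4 and 5.59 in culture 1. Control cultures 10, 11 and 15 had 13.87 to 13.90, culture 24 had 10.93, and cultures 5 and 16 had 5.66 and 5.65. High and low cultures therefore occurred in both groups, and the 95% interval ran from -3.19 to 4.81. In limited medium the same culture numbers were high and low, from 13.78 to 13.81 in undernourished cultures 8, 9, 12 and 20 and 5.98 and 6.69 in cultures 1 and 4. Control cultures there had 13.60 to 13.79 in cultures 10, 11 and 15, 10.45 in culture 24, and 7.53 and 6.16 in cultures 5 and 16. A second cluster of probes assigned to Kcnma1 did not show this split, with signals of 4.74 to 6.86 over the 12 standard arrays and means of 5.39 in undernourished and 5.69 in control cultures, a difference of -0.30. Without control culture 16 the difference of the first cluster was -0.19, and without undernourished culture 1 it was 1.99.

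Prkar2b, a regulatory subunit of protein kinase A, and Gfra1, a co-receptor of the neurotrophic factor GDNF, had the next positive differences beside Glo1. Prkar2b was 9.12 in undernourished culture 4, 7.67 in culture 20 and 7.42 in culture 1, and 5.84 to 6.63 in the other 3, against 5.93 to 6.71 in control cultures. Its difference was 0.78 ± 0.41, 0.39 without undernourished culture 4 and 0.17 without cultures 4 and 20. Gfra1 had 9.05 and 9.02 in undernourished cultures 4 and 20 and 6.87 to 8.14 in the other 4, against 6.76 to 8.01 in control cultures, a difference of 0.74 ± 0.35. Without undernourished cultures 4 and 20 that difference was 0.22, and as a mean over the clusters assigned to the gene 0.45. Ndn, the imprinted gene for necdin, had 7.22 to 8.40 in undernourished (median 7.93) and 6.18 to 8.09 in control cultures (median 7.63). Its difference was 0.60 ± 0.32, and 0.38 without control culture 15.

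The 5 largest negative differences, with the same symbols passed over, were of Bgn, Lox, Atp13a5, Myh2 and AW551984. Bgn, the proteoglycan biglycan, was 11.84 and 11.47 in undernourished cultures 9 and 20 and 6.51 to 7.94 in the other 4. In control cultures it was 11.86 and 11.09 in cultures 16 and 24 and 7.45 to 9.76 in the other 4. The ranges coincided almost fully, and the difference was -0.82 ± 0.94, with -1.42 without undernourished culture 9, -0.35 without undernourished culture 1 and -0.50 as a mean over the 2 clusters of the gene. Lox, which crosslinks collagen and elastin, lay between 5.74 and 9.25 in undernourished cultures (median 6.26) and between 6.03 and 9.36 in control cultures (median 7.68), a difference of -0.75 ± 0.62, with -1.21 without undernourished culture 9 and -0.41 without control culture 24. Myh2, the myosin of fast oxidative fibres, had 5.58 to 7.66 in undernourished (median 6.26) and 5.87 to 8.21 in control cultures (median 6.99), a difference of -0.63 ± 0.40, with -0.39 without control culture 24. Atp13a5 and AW551984 had differences of -0.70 ± 0.29 and -0.61 ± 0.48, the second being -0.93 without undernourished culture 9 and -0.34 without undernourished culture 1.

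The 10 genes with the largest SD within groups, singled out after their values were seen, were Kcnma1, Postn, Bgn, Sln, Tnc, Nid1, Timp3, Edil3, Col1a1 and Myh4. Col1a1, a chain of type I collagen, was 11.76 in undernourished culture 20, 8.84 in culture 9 and 7.16 to 7.93 in the other 4. In control cultures it was 10.42 in culture 16, 9.08 in culture 24 and 7.18 to 8.19 in the other 4, which gave a difference of -0.01 ± 0.72. Postn, or periostin, reached 11.98 in undernourished culture 20 and 10.56 in control culture 16, with group medians of 6.15 and 6.10. Since these are bulk samples, more cells of a type and more RNA per cell cannot be told apart.

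Gene lists were then read for what they cover, 42 in all. Of 785 distinct genes listed, 724 were measured, of which 401 had a positive and 323 a negative difference, 15 (2.07%) had an unadjusted p under 0.05, and 0 passed the adjusted threshold. That share lay near the 2.61% of all genes. The median difference of a list was above 0 for 26 lists and below 0 for 16, and it was smaller than 0.1 in size for 39. For 26 of the 42 lists, the median had the other sign when some single culture was left out, so that no direction is read from them.

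**Figure D3:**
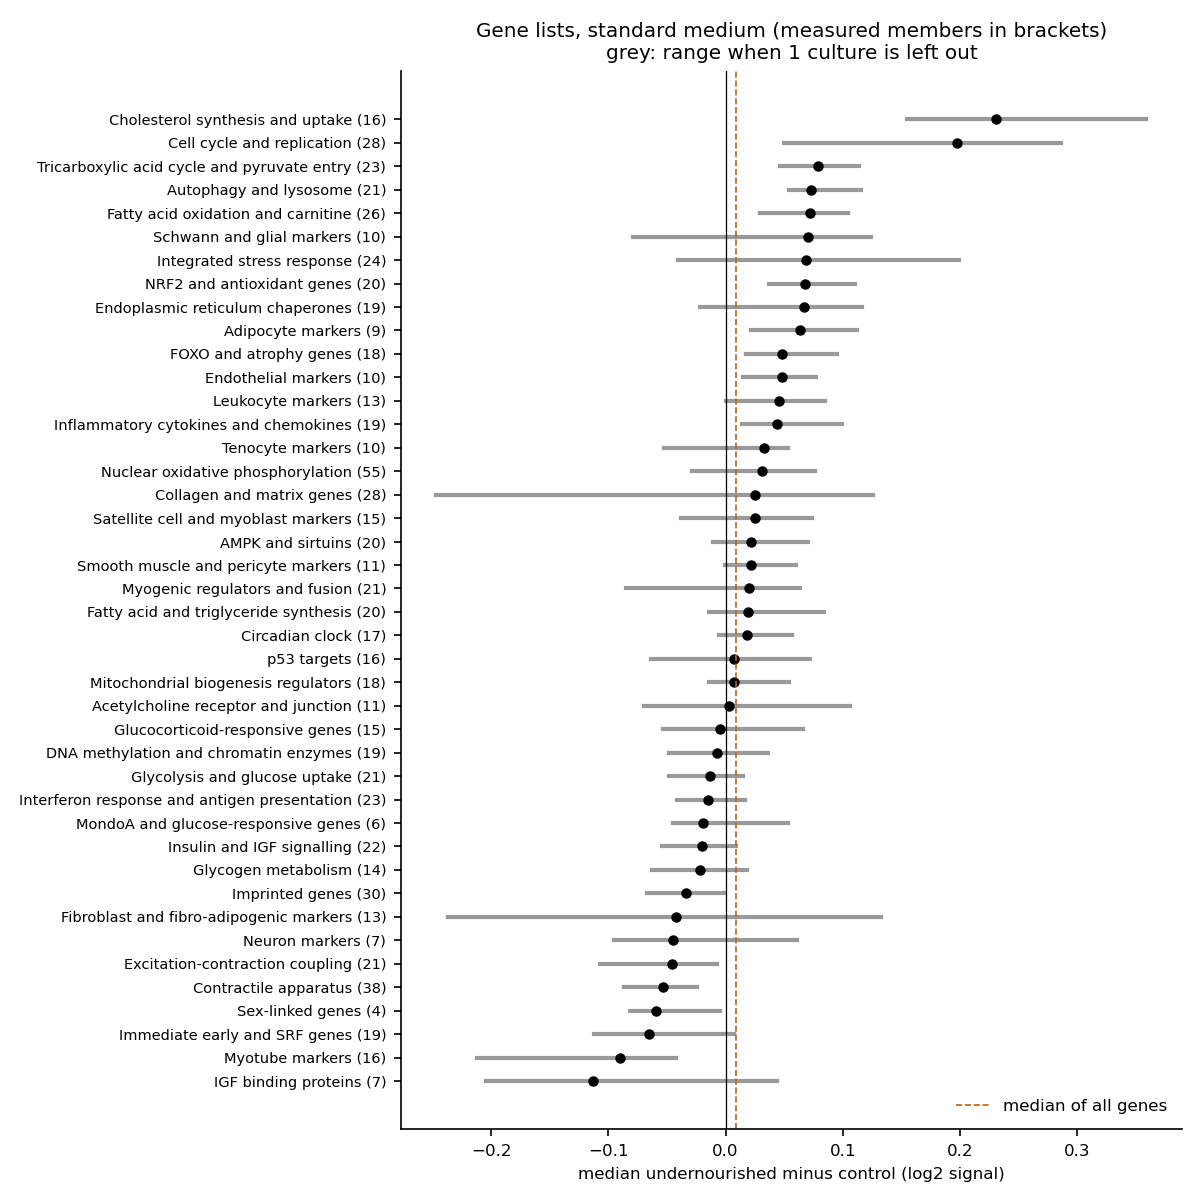
Median difference between undernourished and control cultures (log2 signal, x axis) for each of 42 gene lists, with the number of measured members in brackets. Grey bars give the lowest and highest median when 1 culture is left out, and the dashed line is the median over all genes, 0.0091.

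The myotube markers had a median difference of -0.09, with 2 of 16 positive, against 53.2% of all genes. Their mean level over the list was 11.10 ± 0.26 in undernourished and 11.22 ± 0.33 in control cultures (SD, n = 6 each). When 1 culture was left out the median lay between -0.21 and -0.04. In limited medium it was -0.13, with 3 of the 16 myotube markers positive. Tnni2, the inhibitory troponin of fast fibres, had the lowest p of these, 0.0552 unadjusted, with 9.10 to 10.09 in undernourished (median 9.36) and 9.60 to 9.93 in control cultures (median 9.78). In the contractile apparatus, 7 of 38 genes had a positive difference and the median was -0.05, or -0.09 to -0.02 when 1 culture was left out. In limited medium it was -0.04, with 13 of 38 positive. Tpm3, a tropomyosin of slow fibres and non-muscle cells, had a positive difference of 0.59 ± 0.29, but 0.20 as a mean over its 2 probe clusters and 0.23 with the second title number as a covariate. The signals of the brighter cluster were 8.29 to 10.10 in undernourished (median 9.75) and 8.14 to 9.66 in control cultures (median 8.98).

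Excitation-contraction coupling genes had a median of -0.05, with 5 of 21 positive. Cacnb1, a subunit of the voltage sensor of the muscle membrane, differed by -0.19 ± 0.11. Myogenic regulators had a median of 0.02 with 12 of 21 positive, and satellite cell and myoblast markers 0.02 with 8 of 15. Pax7, the transcription factor of satellite cells, lay between 6.85 and 7.89 in undernourished and between 6.93 and 7.58 in control cultures. Mstn, the myostatin gene that restrains muscle growth, varied widely, from 7.51 to 10.37 (median 8.10) in undernourished and from 7.70 to 9.52 (median 8.13) in control cultures, a difference of 0.17 ± 0.47. Ache, the acetylcholinesterase of the neuromuscular junction, had 6.20 to 6.99 (median 6.45) against 6.44 to 7.31 (median 6.91), a difference of -0.36 ± 0.16.

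The tricarboxylic acid cycle list had 20 of 23 positive with a median of 0.08, fatty acid oxidation 18 of 26 with 0.07, and nuclear genes of oxidative phosphorylation 39 of 55 with 0.03. Without undernourished culture 9 the fatty acid oxidation median was 0.030 and that of oxidative phosphorylation -0.028. Among all genes 53.2% were positive, and among genes at or above the median signal 57.3%. Etfa, which passes electrons from fatty acid oxidation to the respiratory chain, had 9.92 to 10.14 in undernourished (median 10.01) and 9.77 to 9.95 in control cultures (median 9.80), a difference of 0.20 ± 0.07 with an unadjusted p of 0.0116. Idh3a, a subunit of isocitrate dehydrogenase, differed by 0.26 ± 0.11 and Ndufs1, of respiratory complex I, by 0.21 ± 0.09, both with overlapping groups. In limited medium the medians of the 3 lists were 0.01, -0.04 and -0.09.

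Regulators of these programmes, chosen as well-known genes after values had been seen, gave wide intervals. Ppargc1a, the coactivator that drives mitochondrial biogenesis, lay between 7.68 and 8.96 in undernourished (median 8.73) and between 7.47 and 8.86 in control cultures (median 8.43), a difference of 0.21 ± 0.24. Slc2a4, the insulin-responsive glucose transporter GLUT4, lay between 8.11 and 8.94 (median 8.49) in undernourished and between 7.68 and 8.77 (median 8.39) in control cultures, a difference of 0.25 ± 0.19. Cpt1a, which commits fatty acids to mitochondrial oxidation, differed by 0.30 ± 0.19, with 8.55 and 8.31 in undernourished cultures 4 and 1 and 7.44 to 7.75 in the other 4, against 7.28 to 7.79 in control cultures. Pdk4, which shuts off pyruvate oxidation, differed by -0.02 ± 0.32.

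Glycolysis and glucose uptake had 8 of 21 positive with a median of -0.01, and glycogen metabolism 5 of 14 with -0.02. Genes of insulin and IGF signalling had 6 of 22 positive with a median of -0.02. Insr, the insulin receptor, ranged from 7.93 to 8.95 in undernourished (median 8.46) and from 8.31 to 8.94 in control cultures (median 8.64). Its difference was -0.16 ± 0.18, with a 95% interval of -0.54 to 0.22. Igf1r, the IGF-1 receptor, differed by -0.22 ± 0.14, Irs2, a docking protein of both receptors, by 0.25 ± 0.16, and Igf2, the fetal growth factor, by -0.09 ± 0.13. The 7 IGF binding proteins had a median of -0.11, with 3 positive, and Igfbp6 was at -0.22 ± 0.19. That median was 0.044 without undernourished culture 4 and -0.20 without control culture 15, and Igfbp6 was at -0.11 without control culture 16.

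The cholesterol list had the largest median of all, 0.23, with 13 of 16 positive and 2 at an unadjusted p under 0.05, against 1.37% of all genes on that side. Msmo1, which demethylates sterol intermediates, was 9.54, 9.46, 9.30, 9.21, 8.96 and 8.53 in undernourished cultures 1, 20, 8, 12, 4 and 9. In control cultures 11, 16, 15, 10, 24 and 5 it was 9.17, 9.00, 8.82, 8.79, 8.50 and 8.24. Undernourished culture 9 lay among the lowest controls, and the difference was 0.41 ± 0.18. Insig1, which holds the sterol sensor in the endoplasmic reticulum, differed by 0.30 ± 0.18, Sqle, squalene epoxidase, by 0.29 ± 0.22, and Hmgcs1, which makes the mevalonate precursor, by 0.23 ± 0.18. Dhcr7, of the last step, differed by -0.04 ± 0.13.

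Levels of that list overlapped between the groups. They were 8.41 in undernourished culture 9 and 8.85 to 9.07 in the other 5, against 8.24 and 8.37 in control cultures 5 and 24 and 8.67 to 9.00 in the other 4. Leaving out control culture 5 gave a list median of 0.15, and leaving out undernourished culture 9 gave 0.36. With the second title number as a covariate it was 0.48. In limited medium it was 0.14, with 12 of 16 positive.

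Cell cycle and replication genes had a median of 0.20 with 25 of 28 positive, and 2 at an unadjusted p under 0.05, against 1.37% of all genes on that side. Their mean level was 8.28 in undernourished culture 4 and 7.76 in culture 20, and 7.04 to 7.29 in the other 4 undernourished cultures, against 7.09 to 7.47 in control cultures. Mki67, a marker of cells in cycle, was 8.58 in undernourished culture 4, 7.27 in culture 20, 6.72 in culture 1 and 5.55 to 5.93 in the other 3. In control cultures it was 5.75 to 6.80, which gave a difference of 0.49 ± 0.42. Ccnb2, a cyclin of the entry into mitosis, was 9.27 in undernourished culture 4 and 6.39 to 7.50 in the other 5, against 6.53 to 7.54 in control cultures. Both were chosen after their values were seen, as were the other members named here beyond each list's extremes.

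E2f1, a transcription factor that switches on replication genes, had the lowest p of that list, 0.0339 unadjusted. Its log2 signal was 7.30, 7.01 and 6.86 in undernourished cultures 4, 20 and 1 and 6.51 to 6.66 in the other 3, against 6.42 to 6.72 in control cultures. Its difference was 0.29 ± 0.12, and 0.13 without undernourished cultures 4 and 20. The median of the list was 0.05 without undernourished culture 4 and -0.05 without cultures 4 and 20. In limited medium it was -0.01. Cdkn1a, the p21 inhibitor that holds myotubes out of cycle, lay between 12.82 and 13.25 in undernourished and between 12.89 and 13.24 in control cultures. Dnmt1, the methyltransferase that copies DNA methylation at replication, differed by 0.23 ± 0.09, with 7.84 to 8.26 in undernourished (median 7.99) and 7.62 to 7.95 in control cultures (median 7.76). Tet2, which oxidises methylated cytosine, differed by -0.26 ± 0.19, or by -0.14 without control culture 5, and the list of DNA methylation and chromatin enzymes had a median of -0.01 with 9 of 19 positive.

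**Figure D4:**
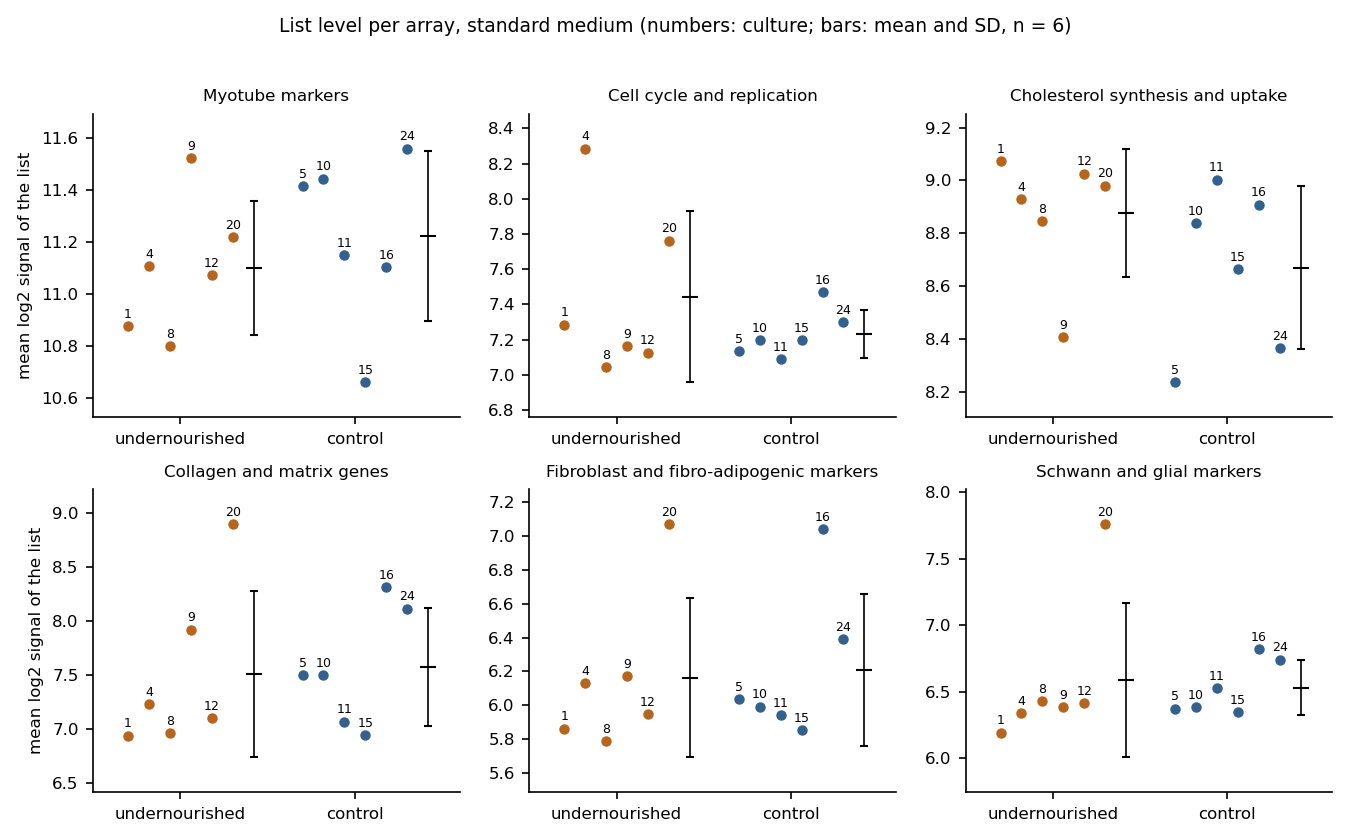
Mean log2 signal of 6 gene lists on each standard-medium array, with undernourished cultures left of control cultures, culture numbers beside the points and bars for the mean and SD of 6. Undernourished cultures 4 and 20 carry the high cell cycle levels, and undernourished culture 20 and control culture 16 the high fibroblast levels.

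Collagen and matrix genes had a median of 0.03 with 15 of 28 positive. Their mean level was 8.90 in undernourished culture 20 and 7.92 in culture 9, and 6.94 to 7.23 in the other 4, against 8.32 and 8.12 in control cultures 16 and 24 and 6.94 to 7.50 in the other 4. Without undernourished culture 20 the median was -0.25. Fibroblast and fibro-adipogenic markers had 4 of 13 positive with a median of -0.04, and their level was 7.07 in undernourished culture 20 and 7.04 in control culture 16. Leaving out undernourished culture 20 gave a median of -0.24, and leaving out control culture 16 gave 0.13.

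Schwann and glial markers had 6 of 10 positive with a median of 0.07, and their level was 7.76 in undernourished culture 20 against 6.19 to 6.43 in the other undernourished and 6.34 to 6.82 in control cultures. Their median was -0.079 without undernourished culture 20. Mcam, a surface protein of pericytes and Schwann cells, was 9.41 in undernourished culture 20 and 6.36 to 6.89 in the other 5, against 6.36 to 6.90 in control cultures, and its difference was 0.37 ± 0.41, or -0.11 without that culture. The part of these cells in the differences above was not tested. Endothelial, leukocyte and adipocyte marker lists had medians of 0.05, 0.05 and 0.06, with 6 of 10, 8 of 13 and 6 of 9 positive. The endothelial level was 5.41 to 5.54 in undernourished and 5.29 to 5.52 in control cultures, and the leukocyte level 5.19 to 5.40 and 5.23 to 5.29.

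Stress, hormone and epigenetic lists lay near 0 in standard medium. The integrated stress response, in which ATF4 switches on amino acid synthesis and transport, had 20 of 24 positive with a median of 0.07, while its level ran from 8.01 to 8.91 in undernourished and from 7.91 to 9.11 in control cultures. Without undernourished culture 9 that median was 0.20, and without control culture 5 it was -0.04. Chaperones of the endoplasmic reticulum had 11 of 19 positive with a median of 0.07, and of -0.021 without control culture 5. In limited medium the medians of these lists were 0.53 and 0.33, with 24 of 24 and 19 of 19 positive.

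Of 30 imprinted genes measured, 9 were positive with a median of -0.03, and glucocorticoid-responsive genes had a median near 0 with 7 of 15. FOXO and atrophy genes had 12 of 18 positive with a median of 0.05, autophagy and lysosome genes 15 of 21 with 0.07, and NRF2 and antioxidant genes 14 of 20 with 0.07. Immediate early genes had 7 of 19 with -0.07, and the clock list 11 of 17 with 0.02. B2m, the light chain of class I antigen presentation, had 11.24 to 11.76 in undernourished (median 11.39) and 10.80 to 11.32 in control cultures (median 11.10), a difference of 0.34 ± 0.12 with an unadjusted p of 0.0105. The interferon and antigen presentation list to which it belongs had 10 of 23 positive with a median of -0.01, and Ifit3, an interferon-induced gene, differed by -0.39 ± 0.19.

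The same contrast in limited medium used other arrays of the same culture numbers, so the 2 comparisons may share cells and their values are set side by side only. In limited medium 0 genes passed the adjusted threshold, with a lowest adjusted p of 0.418 in the limma fit, and 1318 genes (5.94%) had an unadjusted p under 0.05. Leaving out undernourished culture 20 there gave 3 genes past the threshold. Grhpr differed by -0.50 ± 0.13 in limited medium, against -0.34 ± 0.12 in standard medium, and Dubr by 0.55 ± 0.19 against 0.46 ± 0.14. Glo1 differed by 0.58 ± 0.22 in limited medium, with all 6 undernourished cultures above the control mean as in standard medium. Of the 12 genes named on the higher side, 8 kept their sign in limited medium, as did 12 of 12 on the lower. An unadjusted p under 0.05 in limma was found there for 3 and 2 of them, against 5.94% of all genes. As the 2 media may share cells, these counts are no independent check. Prim1, Rbl1, Ankmy2 and Dipk1a turned, with limited-medium differences of -0.03, -0.09, -0.12 and -0.04.

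The maternal diet difference was itself compared between the media, standard minus limited, in a fit of all 24 arrays. That fit did not use the culture numbers. No gene passed the adjusted threshold, the lowest adjusted p was 0.9998 in limma, and 643 genes (2.9%) had an unadjusted p under 0.05. With the culture number as a fixed replicate block, 0 genes passed as well. Single-gene values above that differ between the media are therefore not shown to differ beyond the spread between cultures. Medians of gene lists were not tested between the media.

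**Figure D5:**
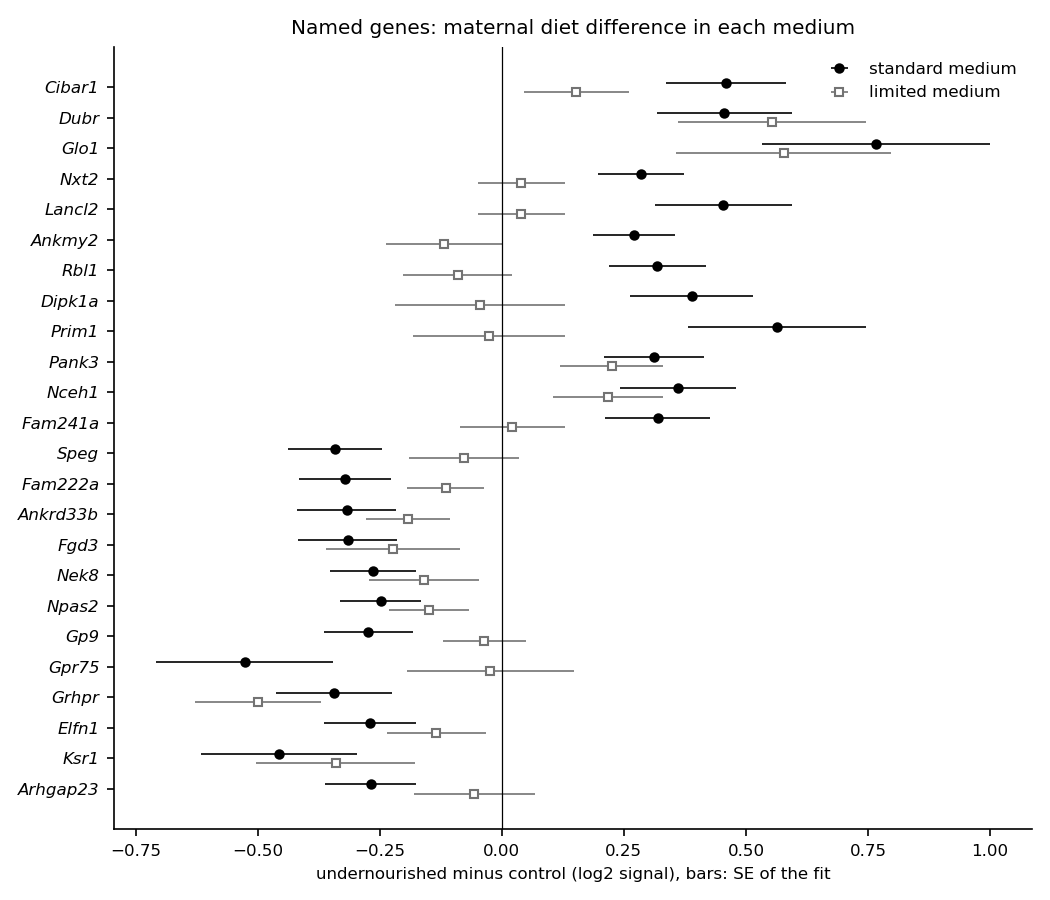
Difference between undernourished and control cultures (log2 signal, x axis) for the 24 named genes in standard medium (filled circles) and limited medium (open squares), with bars for the SE of each fit. The genes were chosen by their standard-medium p, so the filled circles lie away from 0 by choice.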

How the data were processed

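RNA of 24 samples was hybridised to single-colour Affymetrix arrays, and the 12 standard-medium arrays were compared. Per the submitters' processing notes, the authors made the deposited values with RMA in Affymetrix Expression Console. For tool versions and the genome build, the sources used here give nothing. RMA output is on a log2 scale, and the deposited table held values from 1.69 to 14.1, with standard-medium array medians of 5.62 to 5.81. Precision is limited by how many arrays there are, and RMA compresses differences between dim signals.

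The table held 41345 transcript clusters. Those used carried a single symbol (23521), and those left out carried more than 1 (1814) or had no name in the tables used here (16010). Symbols were updated by identifier through RefSeq (GRCm38.p6), which held 23328 of the 23521. For the 1082 genes with several clusters the brightest on average, by all 24 arrays, was kept, which left 22180 genes with no filter on signal. Each gene was fitted with limma 3.58.1 in R 4.3.3 (lmFit and eBayes, 12 arrays, 2 groups, two-sided), with Benjamini-Hochberg adjustment over all genes and a threshold of 0.05. Single genes also had exact permutation tests over the arrays. The procedure was tested on simulated data.

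Members, gene lists, tests and naming rule were chosen with earlier results of these data known. Named were 12 genes per direction, taken in order of p, where the higher group reached the median signal of 6.03, and the members with the highest and lowest moderated statistic in each list. All others named were chosen after their values were seen. Alternatives covered the fit, normalization, filter, clusters, covariate, weights and each culture left out.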

Additional observations from a re-analysis of the deposited data

Results flagged for a closer look

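A sample was singled out where its distance to the next sample of its group of 6 exceeded 0.625 of the group's range, Dixon's 95% limit. Of 326 groups of values tested, 22 held such a sample, 17 for single genes and 5 for gene lists. Chance alone singles out about 1 in 20 groups. Undernourished culture 20 supplied 6 of them and control culture 16 supplied 2.

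In undernourished culture 20 the log2 signals were 9.41 for Mcam, 11.56 for Nid1 and 11.76 for Col1a1, and the list levels were 7.07 for fibroblast and fibro-adipogenic markers, 7.76 for Schwann and glial markers and 5.86 for interferon and antigen presentation genes, the last being low and the others high. In undernourished culture 4 they were 7.13 for Nefl, a neurofilament gene, and 4.10 for Tnmd, both high, and 4.18 for Elavl4 and 3.53 for Phlda2, both low. Undernourished culture 9 had a low 8.59 for Pank3, a high 8.72 for Grhpr and a low cholesterol list level of 8.41. Undernourished culture 12 had a low 11.35 for Igfbp5.

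Among control cultures, culture 16 had a low 6.42 for Dipk1a and a high 9.95 for Etfa. The others were low. Culture 5 had 6.07 for Irs2 and 6.07 for Il6ra, culture 15 had 8.91 for Glo1, culture 10 had 5.97 for Nxt2, and culture 11 had 8.40 for Nr3c1 and a level of 8.00 for AMPK and sirtuin genes.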

How the results depend on the processing

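The count of genes past the threshold in standard medium was 0 under each of 25 alternatives, of which 24 were planned and 1 (without undernourished cultures 4 and 20) was chosen after seeing the data. Unadjusted counts ran from 450 to 813 when 1 culture was left out. The lowest adjusted p was 0.148 over all transcript clusters, 0.303 with the second title number as a covariate and 0.899 or more in the others. In limited medium the count ran from 0 to 3 when 1 culture was left out. The 3 were Cdsn, Plk2 and Sytl2, without undernourished culture 20, at differences of 1.24, 0.59 and 0.66. Between media it was 0 throughout. Centring each array on its median moved the share of positive differences from 53.2% to 63.9% and quantile normalization to 58.8%, with all-gene medians of 0.038 and 0.023.

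Deviations from the group mean correlated between same-numbered arrays of the 2 media at -0.050 to 0.559, and 10 of 12 correlated best with their own number. The exceptions were both undernourished. Culture 9 had -0.050 with its own number and at most 0.163 with another, and culture 12 had 0.018 and 0.275. Whether these arrays share cells with their namesakes was not tested. With the number as a replicate block over all 24 arrays, 0 genes were called and the lowest adjusted p was 0.9998.

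Of 2577 recomputed values of 113 differences, 37 in 17 genes changed sign, none of them in the 24 genes named by p, and the cause was not tested. When 1 culture was left out, ranges that crossed 0 were -0.018 to 0.069 for Acta1, -0.11 to 0.50 for Mcam, -0.020 to 0.086 for Uty, -0.038 to 0.25 for Igfbp5, -0.26 to 0.098 for Abcc9, -0.10 to 0.023 for Plin1, -0.12 to 0.037 for Dhcr7, -0.27 to 0.032 for Sdf2l1, -0.14 to 0.043 for Ppp1r15a, -0.13 to 0.077 for Ccnd3 and -0.19 to 1.99 for Kcnma1. Without undernourished culture 20 and control culture 16, values were -0.061 for Mcam, -0.011 for Gfra3, -0.012 for Uty, -0.037 for Igfbp5, 0.025 for Plin1, 0.038 for Atp5e, 0.013 for Dhcr7, 0.00373 for Sdf2l1, 0.092 for Ppp1r15a, 0.087 for Ccnd3 and -0.67 for Kcnma1. Without undernourished cultures 4 and 20, they were -0.19 for Mcam, 0.081 for Plin1, 0.0058 for Ldha, 0.086 for Dhcr7, 0.045 for Ppp1r15a and 0.052 for Ccnd3. With the title number as a covariate they were -0.10 for Igfbp5, 0.044 for Cdh15, 0.056 for Dhcr7 and 0.00171 for Ppp1r15a. With array weights they were 0.0027 for Ptprc and 0.044 for Ppp1r15a, and with the mean over clusters -0.0027 for Fmod. Of 966 list medians, 1 was counted as moved beyond the spread between cultures. It was that of the endothelial markers, -0.10 among genes of at least median signal. That value equals the difference of 1 member, Egfl7, the lowest in the list. Medians not counted include 0.48 for the cholesterol list with the title number as a covariate. Another was -0.05 for cell cycle genes without undernourished cultures 4 and 20. The number of arrays and the distance of dim genes from background limit these values.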
